A study of Saccharomyces cerevisiae with 10 samples.

Results

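Within 2 of 5 yeast strains, LAB and WY15, the 2 cultures of a strain differed several-fold in *DAN1* (YJR150C), a cell wall mannoprotein gene of cells short of oxygen, and the 4 libraries from these cultures, of 10 in the series, are described here. In each strain the culture with the lower *DAN1* value was set against its partner, which makes LAB replicate 1 and WY15 replicate 2 the low-*DAN1* cultures and LAB replicate 2 and WY15 replicate 1 the high-*DAN1* cultures. The normalized count of *DAN1* was 423 and 233 in the low cultures of LAB and WY15 and 3019.6 and 6054 in their partners. The low and high cultures were thus chosen by their measured *DAN1* values, so *DAN1* is no result, and because every other gene was read in the same libraries, no difference between low and high cultures carries a test here. A log2 difference below is always the low minus the high culture of the same strain, on log2(normalized count + 1), given first for LAB and then for WY15, and the spread between the 2 pairs is its only replicate error.

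All strains are of the S288C laboratory background and were grown as separate 5 mL fermentations of supplemented white grape juice, pelleted once the weight loss reached 35%, which took about 37 h. LAB has the genotype WT in the labels, WY15, WY7 and WY23 carry the *MED15* allele of that name, and a further strain has *MED15* deleted and was collected after 48 h. The deletion is used here in a test, is set beside the other libraries in places, and counts in every mean of 10 libraries. *MED15* codes for a subunit of Mediator, which carries signals from activators bound at promoters to RNA polymerase II. Each strain has 2 biological replicates, poly(A) RNA was sequenced, and the recovered reads number 28.5 and 25.9 M in the low cultures of LAB and WY15 and 29.1 and 29.3 M in the high ones. The cells were of one mating type in their RNA: genes of alpha cells summed to 43074 to 52612 normalized counts over the 4 libraries and genes of a cells to 942 to 1064. 

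Yeast needs molecular oxygen to close and demethylate sterols, to desaturate fatty acids and to make haem, and when oxygen runs short it changes its transcription accordingly. Upc2 and Ecm22 bind sterol regulatory elements and turn on sterol synthesis, sterol uptake and the DAN and TIR wall mannoproteins when sterols are low. Mga2, a protein of the endoplasmic reticulum, turns on the desaturase gene *OLE1*, and Rox1, made when haem is present, holds down the hypoxic genes, several of which have an aerobic twin.

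Of 6065 genes with a mean of at least 10 normalized counts, 132 were at least 2-fold lower in the low-*DAN1* culture of LAB (2.18%) and 127 in that of WY15 (2.09%), and 43 of these were lower in both (0.709%). Fewer genes were at least 2-fold higher, 25 in LAB (0.412%) and 60 in WY15 (0.989%), with 10 in both (0.165%). Genes of the DAN and TIR, sterol, fatty acid, haem, hypoxic isoform and regulator lists made up 15 of the 43 lower ones, out of 86 such genes tested, or 17.4% of those lists, and 14 of 85 (16.5%) without *DAN1*. The 43 genes together took 0.751% and 0.530% of the reads in the low cultures of LAB and WY15 and 1.88% and 1.69% in their partners. *OLE1* alone accounted for 0.299% and 0.192% in the low cultures against 0.743% and 0.611% in the high ones. RNA of a whole culture cannot tell fewer cells that express a gene from less RNA of it per cell.

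**Figure D1:**
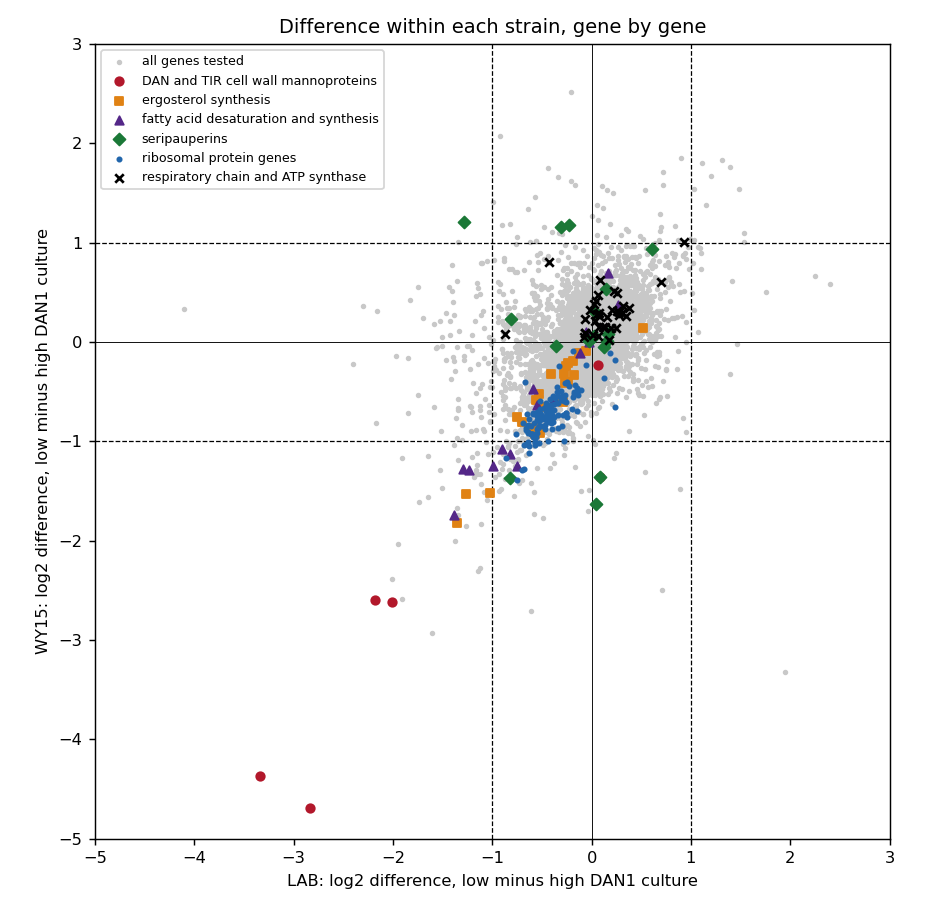
Each point is a gene, with the log2 difference (low minus high *DAN1* culture) of LAB on the horizontal axis and of WY15 on the vertical axis; grey points are all 6065 genes, coloured symbols are gene lists and dashed lines mark a 2-fold difference. The DAN and TIR genes reach the far lower left, the ribosomal protein genes form a compact cloud below 0 in both strains, and the seripauperins scatter around 0.

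The wall mannoproteins *TIR1*, *TIR3* and *TIR4*, anchored proteins made in the cold and without oxygen, were among the genes that lay farthest apart. *TIR1* stood at 176 and 122 normalized counts in the low cultures of LAB and WY15 and at 1788 and 2545 in the high ones, a difference of -3.34 and -4.37, or 10.1 and 20.7 fold. *TIR3* stood at 354 and 324 against 1603 and 1958, and *TIR4* at 1315 and 1010.3 against 5294 and 6192. For these genes both low values were below both high values by more than the gap between the low cultures of the strains. They are named here for their gap in both pairs, and how many of all genes are separated in this way was not counted. The 4 libraries of WY7 and WY23 lay in between or near the high cultures, for *TIR1* at 638 and 1003 in WY7 and 1845 and 1809.8 in WY23. *TIP1*, a related wall protein first found as cold-induced, followed at 13497 and 8254 against 50729.5 and 49543 (-1.91 and -2.59). *TIP1* and the repressor gene *NRG2* are neighbours on chromosome II with no gene between them, and *NRG2* was lower as well (-1.35 and -1.19).

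The rest of the DAN and TIR list did not share the gap. *DAN4*, which lies close to *DAN1* on chromosome X, had 1583 and 1573 normalized counts in the low and 1512 and 1849 in the high cultures, so the groups overlapped. *TIR2* differed by -0.43 and -0.68, *PAU23* by 0.04 and 0.30, and *PAU24* was counted too rarely to read, with no more than 10.1 normalized counts in any of the 4 libraries. Of the 7 genes of the list besides *DAN1*, 3 were at least 2-fold lower in both strains. Their median difference was -0.43 in LAB and -1.36 in WY15, the values of *TIR2* and of the rarely counted *PAU24*, against -0.01 and 0.00 over all genes tested.

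**Figure D2:**
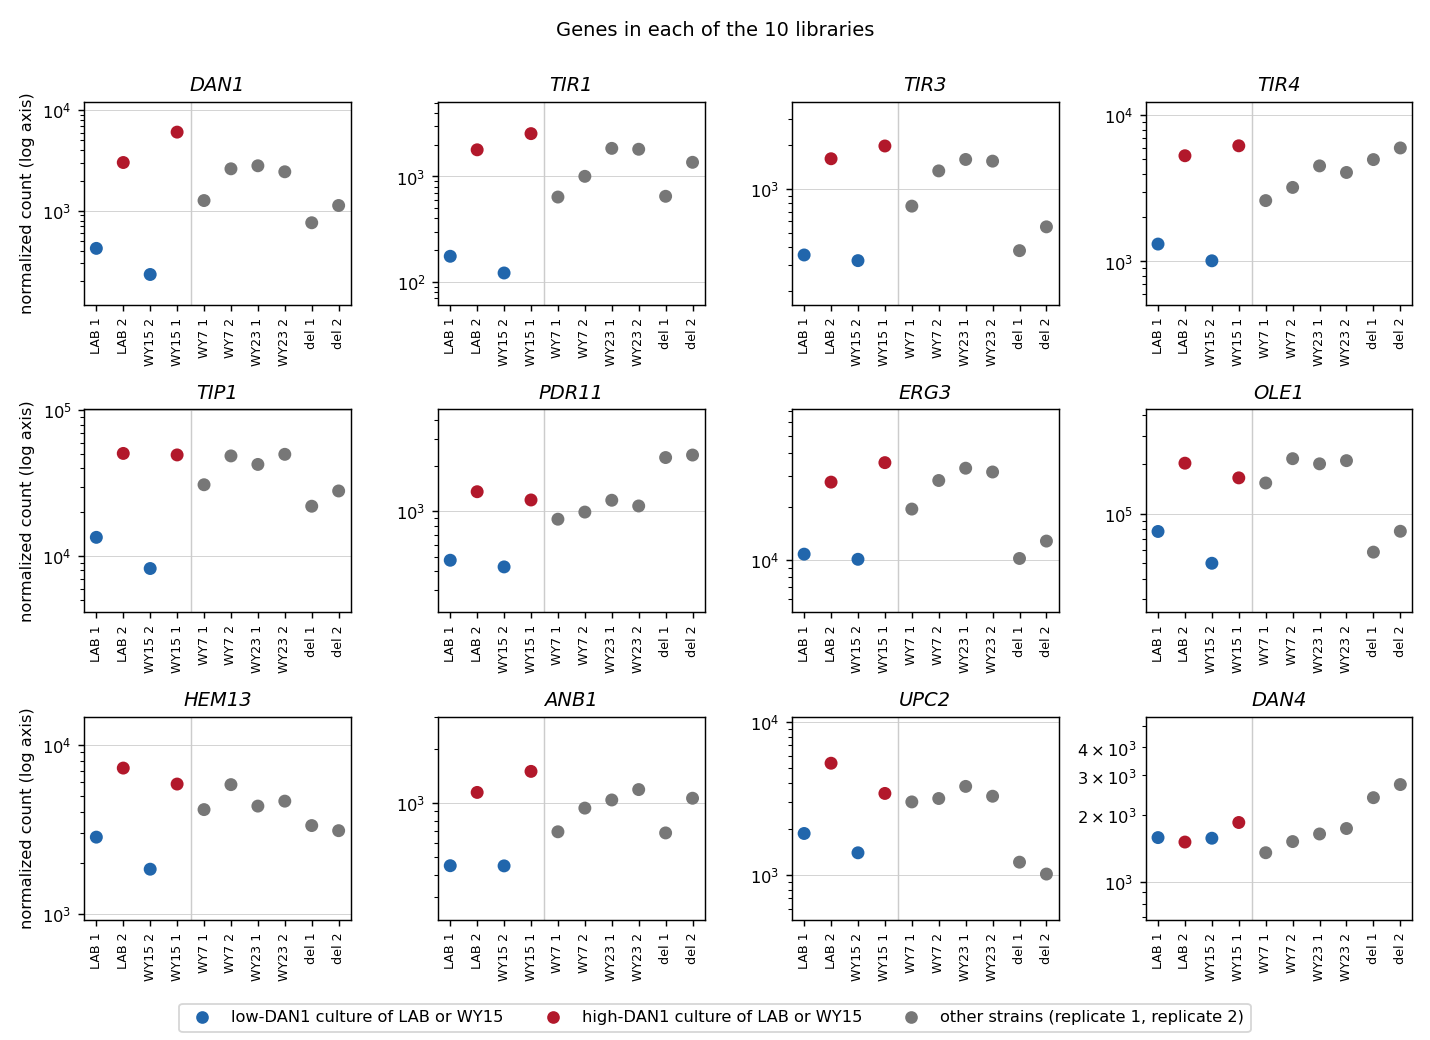
Normalized counts (log axis) of 12 genes in each of the 10 libraries; blue points are the low-*DAN1* cultures of LAB and WY15, red points their high-*DAN1* partners and grey points the replicates of WY7, WY23 and the *MED15* deletion (del). In 11 panels the blue points lie below both red points, and in the *DAN4* panel they do not. The genes of those 11 panels are among the genes 2-fold lower in both strains.

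Sterol uptake genes were lower together, in a list that also holds genes acting on sterol esters. *PDR11*, a transporter that imports sterol when none can be made, had 474 and 429 normalized counts in the low and 1346 and 1187 in the high cultures (-1.50 and -1.47), and *YEH1*, which frees stored sterol from its esters, had 1238 and 1041 against 3202 and 4188 (-1.37 and -2.01). *AUS1*, the partner transporter of *PDR11*, was just outside the 2-fold limit in LAB, with a difference of -0.94 and -1.50. The regulators of uptake *SUT1* and *SUT2* differed by -0.88 and -0.63 and by -0.89 and -1.13. Of the 9 genes of the list 8 were lower in both strains by any amount and 2 by 2-fold, where 35.3% of all genes were lower in both by any amount and 34.3% were higher in both. *TGL1*, a sterol ester hydrolase of lipid droplets, was the exception at 0.03 and 0.36. *YEH2*, counted among the 8, had no real gap in LAB (-0.0002 and -0.33). With all libraries set to an equal sum, or under quantile normalization, 7 of the 9 were lower in both. *PDR11* is a close neighbour of *TIR3* on chromosome IX, with 1 gene between them.

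Ergosterol synthesis was lower along nearly its whole length, by smaller amounts. Of 24 genes 23 were lower in both strains, with a median difference of -0.44 and -0.55, and 3 passed 2-fold in both. *ERG3*, a sterol desaturase that uses oxygen, had 10755 and 10058 normalized counts in the low and 27520.4 and 35483 in the high cultures (-1.36 and -1.82). *ERG25*, the oxygen-using demethylase, differed by -1.03 and -1.52, and *ERG6*, the methyltransferase that adds a side-chain methyl group typical of fungal sterols, by -1.27 and -1.53. These 3 genes act late in the pathway, and the low cultures of LAB and WY15 were close to each other in all of them, with *ERG6* at 2586 and 2475 and *ERG25* at 12918 and 13440.1. The next by the smaller of the 2 differences were *ERG4* (-0.76 and -0.75), *ERG28* (-0.70 and -0.81), *ERG2* (-0.58 and -0.86) and the demethylase *ERG11* (-0.57 and -0.93). Among the smallest differences were those of *HMG1*, a reductase at the head of the pathway, (-0.12 and -0.11), and of the squalene synthase gene *ERG9* (-0.05 and -0.09), while *ERG8* was higher in both (0.51 and 0.14).

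The promoters of these genes were read from the R64 genome, over the 300 bases before each start codon, for TCGTATA and TCGTTTA, the core letters of the sterol regulatory element, on both strands. Either core was present in 561 of the 5706 tested genes with such a promoter (9.83%). It was found in 5 of the 7 DAN and TIR genes besides *DAN1* and in 15 of 24 ergosterol genes. Among the genes of these lists that were 2-fold lower in both strains, *TIR4* and *ERG3* held a core. *TIR1*, *TIR3*, *ERG6* and *ERG25*, lower as well, held neither, while *DAN4*, *TIR2*, *PAU23* and *PAU24*, not 2-fold lower in both, held one. Of the 42 lower genes besides *DAN1*, 11 held a core (26.2%). Of 9 sterol uptake and esterification genes 2 did, *YEH1* and *ARE1*, which act on sterol esters. The transporter genes *AUS1* and *PDR11* held neither core. The first sequence below is that of *DAN1*, which formed the groups, the next 2 belong to genes that were lower in the low cultures, and the last 2, from *DAN4* and the seripauperin *PAU5*, to genes that were not, although they hold the same core letters. Each runs from 300 to 101 bases before the start codon on the strand of its gene, 5′ to 3′, with the cores in capitals on whichever strand they lie. Different motifs overlapped each other in 4 of all promoters searched, counting the Rox1 core described further on.
DAN1, chrX:709808-710007, minus strand: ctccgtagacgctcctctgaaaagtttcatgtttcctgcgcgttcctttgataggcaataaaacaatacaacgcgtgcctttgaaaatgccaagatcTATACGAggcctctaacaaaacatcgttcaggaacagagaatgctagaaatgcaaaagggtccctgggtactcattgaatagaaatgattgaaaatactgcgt
TIR4, chrXV:344035-344234, plus strand: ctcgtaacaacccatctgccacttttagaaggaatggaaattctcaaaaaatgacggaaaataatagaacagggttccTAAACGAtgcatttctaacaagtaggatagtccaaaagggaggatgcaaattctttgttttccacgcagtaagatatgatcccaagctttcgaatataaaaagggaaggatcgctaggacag
ERG3, chrXII:253561-253760, plus strand: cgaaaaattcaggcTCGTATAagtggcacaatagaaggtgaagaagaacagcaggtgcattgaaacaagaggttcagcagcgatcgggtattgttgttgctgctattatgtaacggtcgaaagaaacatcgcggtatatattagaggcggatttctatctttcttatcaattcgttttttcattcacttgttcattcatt
DAN4, chrX:715841-716040, minus strand: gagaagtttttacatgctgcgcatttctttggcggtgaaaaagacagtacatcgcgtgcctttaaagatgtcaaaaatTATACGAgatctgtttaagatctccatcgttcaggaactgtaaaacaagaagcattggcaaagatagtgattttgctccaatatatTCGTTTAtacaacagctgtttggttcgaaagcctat
PAU5, chrVI:99700-99899, minus strand: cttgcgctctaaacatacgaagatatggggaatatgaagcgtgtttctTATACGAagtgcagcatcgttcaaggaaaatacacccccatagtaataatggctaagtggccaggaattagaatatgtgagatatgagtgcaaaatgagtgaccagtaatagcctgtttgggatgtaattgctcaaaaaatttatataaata
*DAN1*, *TIR4*, *ERG3* and *PAU5* thus show 1 core each and *DAN4* shows 2. A match of letters says nothing about whether a factor bound there in these cultures.

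The seripauperins, a large family of wall protein genes known for expression without oxygen, were not lower. Of 16 that were tested, 15 hold a core in the promoter (93.8%), yet 0 were 2-fold lower in both strains, and the median difference was 0.03 and 0.07. *PAU2* stood at 629.8 and 618 normalized counts in the low and 565 and 614 in the high cultures, *PAU5* at 224 and 266 against 228 and 263, and *PAU17* at 159 and 181 against 146 and 187. Summed over the family the low cultures had 1699 and 1796 normalized counts and the high ones 1642 and 1695, so the low cultures were not below the high ones. 10 of the 16 have a near-identical copy, and their reads may have been assigned to the wrong member.

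Fatty acid genes were lower around the enzymes that start and desaturate the chain. *OLE1*, the desaturase that makes unsaturated fatty acids, had 77775 and 49684 normalized counts in the low and 203609 and 165545 in the high cultures, while WY7 and WY23 had 154017 and 216973 in WY7 and 201767 and 211018 in WY23. *ACC1*, which makes the building block for chain growth, had 9115 and 7254 against 21364 and 17768 (-1.23 and -1.29), and the synthase gene *FAS1* had 7993 and 6682 against 19652 and 16225 (-1.30 and -1.28). In all 3 the groups were apart, but these genes were named for a gap in both pairs of the same libraries. *FAS2*, the other synthase subunit, differed by -0.90 and -1.08, the acyl-CoA synthetase gene *FAA4* by -0.76 and -1.24, the acyl-CoA binding protein gene *ACB1* by -0.82 and -1.12 and the elongase gene *ELO3* by -0.99 and -1.25, each short of 2-fold in LAB and beyond it in WY15. *ELO1* (0.26 and 0.37) and *FAA1* (0.17 and 0.69) were higher instead. In the list of 15 genes 11 were lower in both strains and 3 by 2-fold, with medians of -0.59 and -0.64.

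Of the hypoxic isoform genes and known Rox1 targets 3 of 10 were 2-fold lower in both strains. Beside *OLE1* they were *HEM13*, the oxygen-using oxidase of haem synthesis, at 2837 and 1834 normalized counts in the low and 7267 and 5846 in the high cultures, and *ANB1*, the hypoxic form of a translation factor, at 449.7 and 449 against 1148 and 1502. *ANB1* differed by -1.35 and -1.74, whereas its aerobic twin *HYP2* differed by -0.06 and -0.07. *AAC3*, the hypoxic ATP carrier of mitochondria, differed by -0.64 and -1.11 but was little expressed, with 57.6 to 196 normalized counts, and its aerobic relative *PET9* differed by -0.38 and -0.39.

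The other members of the list were short of 2-fold in both strains, and *COX5B* and *CYC7* were not lower in both. *COX5B*, the hypoxic subunit of cytochrome oxidase, stood at 18242 and 18568 in the low and 16429 and 19310.2 in the high cultures, and *CYC7*, the hypoxic cytochrome c, at 9150.2 and 10043 against 8105 and 7607. Smaller differences in the same direction as *DAN1* were those of *HMG2*, at -0.23 and -0.21, of the iron transporter gene *FET4*, at -0.47 and -0.33, and of the fumarate reductase genes *FRD1* and *OSM1*, at -0.09 and -0.15 and -0.10 and -0.19. In haem synthesis *HEM13* was alone past 2-fold among 9 genes, and the next by the smaller of the 2 differences, *HEM14*, differed by -0.25 and -0.27. The label of the cultures, low or high in hypoxic genes, therefore holds, besides *DAN1* that set it, for *TIR1*, *TIR3*, *TIR4*, *ANB1*, *HEM13*, *OLE1* and several sterol genes and not for *DAN4*, the seripauperins, *COX5B* or *CYC7*, and the cultures are named by *DAN1* for that reason.

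The core letters of the Rox1 site, ATTGTTC, were present in 6 of the 10 promoters of the hypoxic isoform list, in 8 of the 43 lower genes (18.6%) and in 432 of 5706 promoters in all (7.57%). The 3 sequences shown are those of the lower members of the list, with these cores in capitals and the same layout as above.
ANB1, chrX:525482-525681, minus strand: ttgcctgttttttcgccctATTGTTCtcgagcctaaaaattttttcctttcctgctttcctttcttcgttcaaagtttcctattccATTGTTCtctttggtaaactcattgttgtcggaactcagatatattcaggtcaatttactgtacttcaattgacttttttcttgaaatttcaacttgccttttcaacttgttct
HEM13, chrIV:546342-546541, plus strand: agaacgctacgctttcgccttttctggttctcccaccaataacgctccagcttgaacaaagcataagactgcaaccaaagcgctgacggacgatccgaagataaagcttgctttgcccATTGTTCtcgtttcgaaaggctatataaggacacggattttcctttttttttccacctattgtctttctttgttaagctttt
OLE1, chrVII:398328-398527, plus strand: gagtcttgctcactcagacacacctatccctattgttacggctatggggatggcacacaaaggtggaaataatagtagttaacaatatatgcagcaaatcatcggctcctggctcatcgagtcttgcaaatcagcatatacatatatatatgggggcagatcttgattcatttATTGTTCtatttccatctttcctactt
*ANB1* has 2 cores and the others have 1. *COX5B* and *HMG2*, which did not differ by 2-fold in either strain, hold the core too.

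Among the regulators *UPC2*, which is itself switched on when sterols are low, had 1860.2 and 1391 normalized counts in the low cultures and 5354 and 3399 in the high ones (-1.52 and -1.29). *MGA2* had 7263 and 5258 against 13661 and 14677 (-0.91 and -1.48) and the haem-responsive activator gene *HAP1* 10945 and 10704 against 19718 and 19896 (-0.85 and -0.89), although the laboratory background is known to carry a transposon in *HAP1*. For these 3 genes, put first for their gap in both pairs, the groups were apart. The close relatives of the first pair were not lower: *ECM22*, twin of *UPC2*, differed by 0.00 and 0.23, and *SPT23*, twin of *MGA2*, by -0.08 and 0.11. The repressor *ROX1* differed by -0.07 and -0.19, *MOT3* by -0.27 and 0.10 and the corepressor *TUP1* by -0.18 and -0.28. *HAP4*, an activator subunit for respiratory genes, differed by -0.88 and -0.17. Of 14 regulators 8 were lower in both strains by any amount, 1 by 2-fold, and the median was -0.08 and -0.10.

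Other genes among the most reduced came from several functions. The phospholipase gene *PLB2* differed by -1.64 and -1.56, *IZH4*, a membrane protein linked to zinc, by -1.95 and -2.03, and *SET4*, a protein with a SET domain, by -1.60 and -2.92. *NDJ1*, known from meiosis, was lower by -2.01 and -2.38 at a low level of 37.0 to 197 normalized counts. *HES1*, an oxysterol-binding relative, and *ATF2*, an acetyltransferase acting on sterols, differed by -1.16 and -1.24 and -1.27 and -1.85. The daughter-cell wall genes *DSE2* and *DSE4* differed by -1.26 and -1.53 and -1.12 and -1.83. Uptake genes were among the 43 too: the uridine permease *FUI1* (-1.06 and -1.59), the methionine permease *MUP1* (-1.04 and -1.12), the arginine permease *ALP1* (-1.17 and -1.29) and the hexose transporter *HXT2* (-1.38 and -1.04). 13 of 19 amino acid permease genes were lower in both strains by any amount, with medians of -0.32 and -0.35. In structural wall genes *TIP1* was the 1 of 20 past 2-fold, and others lower in both included the glucan synthase gene *FKS1* (-0.61 and -0.77) and the glucan remodelling gene *GAS1* (-0.63 and -0.53). Over the 42 genes besides *DAN1* the median difference was -1.28 in LAB and -1.53 in WY15, and of all 43 genes 31 had the larger difference in WY15.

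The genes higher in the low-*DAN1* cultures included *ARO9* and *ARO10*, which act in the breakdown of aromatic amino acids to fusel alcohols. *ARO9*, an aromatic aminotransferase, had 1353 and 1759 normalized counts in the low and 481 and 605 in the high cultures (1.49 and 1.54), and *ARO10*, a decarboxylase of the next step, had 1591 and 2364 against 638 and 665 (1.32 and 1.83). *SHH4*, a relative of a succinate dehydrogenase subunit, had 1062 and 1317 against 518 and 648, and its sister *SHH3* differed by 1.10 and 0.90. In each of these the low cultures were above the high ones without overlap, which their choice by a gap in both pairs favours. Of the 10 genes past 2-fold 3 have a standard name, and below that limit came the transketolase *TKL2* (0.99 and 1.04), the aldehyde reductase *GRE2* (0.98 and 0.96), *CUR1*, which sorts misfolded proteins (1.09 and 0.95), *AFR1* (1.07 and 0.95), *SYM1*, a mitochondrial membrane protein (0.94 and 0.90), *RTC3* (0.90 and 1.85) and *DCS2*, an inhibitor of mRNA decapping (0.92 and 0.86).

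Respiratory genes were slightly higher. *CYC1*, the aerobic cytochrome c, had 152 and 165 normalized counts in the low and 79.1 and 81.3 in the high cultures (0.93 and 1.01), and the cytochrome oxidase genes *COX12* and *COX6* differed by 0.69 and 0.60 and 0.32 and 0.36. Of 36 genes of the respiratory chain and ATP synthase 29 were higher in both strains and 0 lower in both, with medians of 0.10 and 0.28 and 0 past 2-fold in both. *COX5A*, the aerobic twin of *COX5B*, differed by 0.27 and 0.30, and *NDE1*, an external NADH dehydrogenase, was an exception in LAB (-0.87 and 0.08). The genes of the mitochondrial genome itself (28) have no reads in the table.

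Chaperone genes were higher by a similar amount, 13 of 19 in both strains, with medians of 0.31 and 0.28. *HSP78* differed by 0.64 and 0.61, *SIS1* by 0.57 and 0.52, *SSA1* by 0.52 and 0.49 and *HSP104*, which dissolves aggregates, by 0.47 and 0.80. Trehalose and glycogen genes separated the strains. Their median was 0.01 in LAB and 0.84 in WY15, 9 of 16 were higher in both strains and 6 were 2-fold higher in WY15 alone. *GDB1*, the glycogen debranching enzyme, was higher in both (0.81 and 0.89), but the trehalose phosphate synthase *TPS1* differed by 0.29 and 1.08 and the phosphatase *TPS2* by -0.64 and 1.34. General stress genes did likewise, with medians of 0.04 and 0.63, and the catalase *CTT1* differed by 0.54 and 1.53. Only 3 genes were past 2-fold in opposite directions in the strains (0.0495%), of which the glycogen synthase gene *GSY1* (-1.34 and 1.00) is the abundant one, and *PAU3* and *ASP3-1* had means of 7.66 and 19.7 normalized counts over the 4 libraries.

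**Figure D3:**
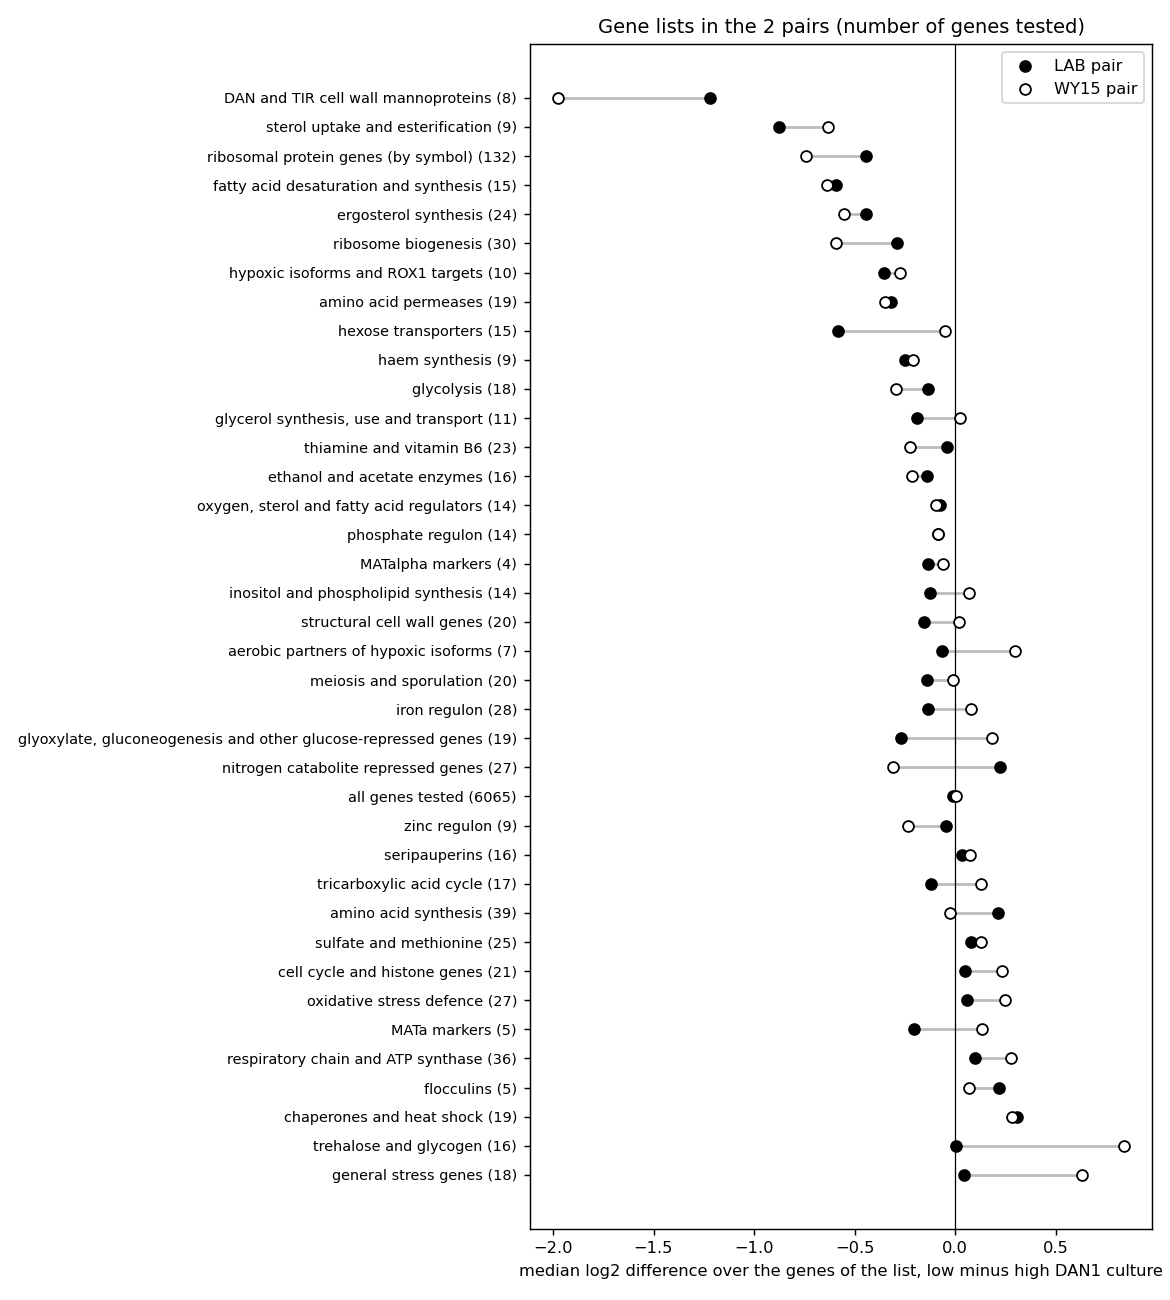
Median log2 difference (low minus high *DAN1* culture) over the tested genes of each list, with filled points for the LAB pair, open points for the WY15 pair and the number of genes in brackets. Sterol uptake and esterification, ribosomal protein, fatty acid and ergosterol genes lie below 0 in both pairs. So do the DAN and TIR genes, drawn with *DAN1* (-0.43 and -1.36 without it), and hexose transporters lie low in the LAB pair. Trehalose and general stress genes are high in the WY15 pair and near 0 in the LAB pair.

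Ribosomal protein genes were the broadest group to differ. Of 132 genes taken by symbol 128 were lower in both low-*DAN1* cultures and 0 were higher in both, with medians of -0.45 and -0.74. No single one passed 2-fold in both strains, and *RPL5*, at 11952 and 11624 normalized counts in the low and 21782 and 26104 in the high cultures, came closest (-0.87 and -1.17). Their summed normalized counts were 679075 and 695198 in the low cultures of LAB and WY15 and 922879 and 1153470 in the high ones. 18 of them have a near-identical copy. The genes of ribosome assembly went the same way, 28 of 30 lower in both, with medians of -0.29 and -0.59. Glycolysis had medians of -0.14 and -0.30, with 12 of 18 genes lower and 3 higher in both strains. Under quantile normalization these medians were 0.03 and -0.16, with 6 genes lower and 5 higher in both. Hexose transporters had medians of -0.58 and -0.05. The sums of all normalized counts were 26.0 and 25.9 M in the low cultures against 27.4 and 27.1 M in the high ones. The part of this difference in scaling in these results was not tested beyond the other scalings given here and under the processing.

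Beside WY7 and WY23, whose replicates were not used to form the groups, the low cultures stood at the edge of the *MED15* strains, the deletion left aside. The low cultures of LAB and WY15 were below all the other 6 libraries of *MED15* strains for 37 of the 42 lower genes besides *DAN1* (88.1%), against 14.4% of all genes, but 2 of those 6 libraries are the high cultures that chose these genes. The same was true of 122 of 132 ribosomal protein genes (92.4%), 22 of 30 ribosome assembly genes, 12 of 18 glycolysis genes (66.7%), 15 of 24 ergosterol genes (62.5%), 9 of 15 fatty acid genes and 4 of the 7 DAN and TIR genes besides *DAN1*. These counts were made on the deposited scaling only. In the other direction 12.0% of all genes were above all 6 in both low cultures, with 8 of 36 respiratory genes and 7 of the 10 higher genes. Leaving out *DAN1*, the median of the other 42 lower genes, relative to each gene's mean of 10 libraries, was -0.72 and -1.14 in the low cultures of LAB and WY15 and 0.62 and 0.60 in the high ones. It was -0.04 and 0.24 in WY7, 0.41 and 0.30 for the WY23 libraries, and in the deletion -0.22 and 0.01. Of these 42 genes 35 in WY7 replicate 1 and 29 in replicate 2 fell between the low and the high cultures. In WY23 replicates 1 and 2 it was 21 and 23, and in the deletion 19 and 18. At or below the higher of the low cultures were 12 and 9 of the 42 in the deletion. That number was 1 and 3 in WY7 and 3 and 4 in WY23.

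**Figure D4:**
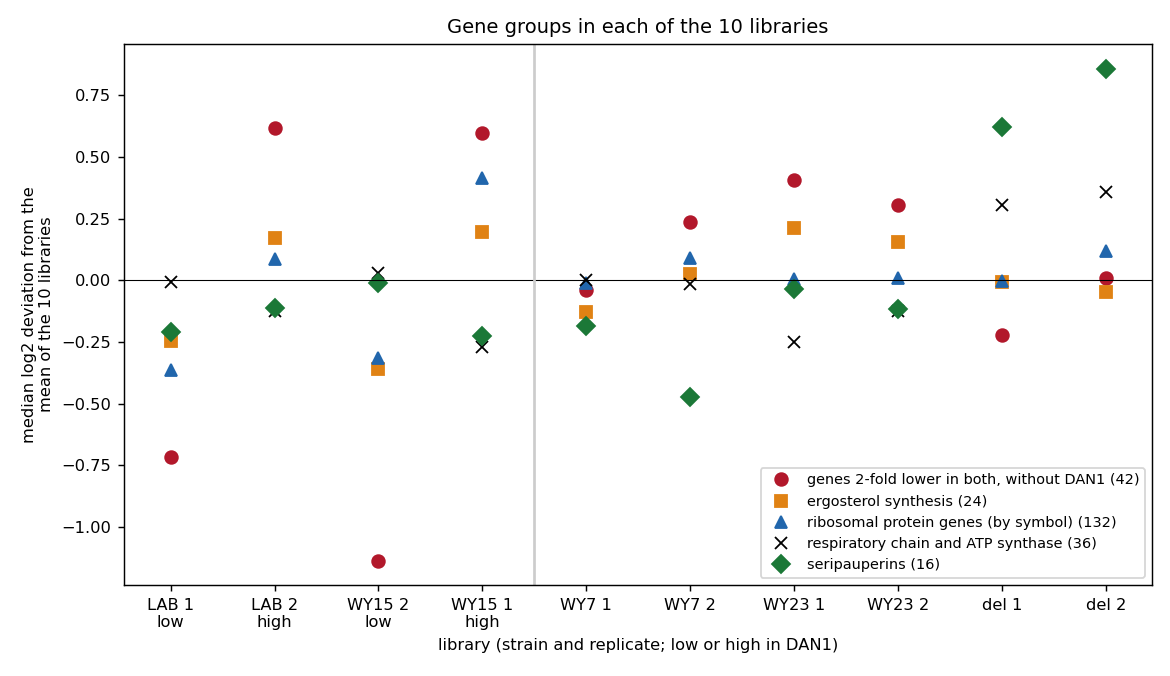
Median over the genes of a group of the log2 deviation from the gene's mean of the 10 libraries, for each library, with the numbers of genes in brackets (del, *MED15* deletion). The 42 genes, the ergosterol genes and the ribosomal protein genes are lowest in LAB 1 and WY15 2, while the seripauperins and the respiratory genes are highest in the deletion.

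Across genes the differences of the LAB and WY15 pairs went together (Pearson r = 0.50, Spearman rho = 0.52, 6065 genes). This is a description, since genes are not independent and all libraries belong to 1 series. The sign of r follows from turning each pair by its *DAN1* value, and taking the pairs by replicate number reverses it. Without the 53 genes past 2-fold in both strains r was 0.42. Agreement of replicate differences was not limited to these strains. For replicate 1 minus replicate 2, r was 0.41 between WY7 and the deletion (0.39 without the 53 genes). It was 0.27 between WY7 and WY23 and 0.26 between WY23 and the deletion. The low minus high difference of LAB, however, ran against replicate 1 minus replicate 2 of WY7 (r = -0.22), WY23 (-0.16) and the deletion (-0.26). For the WY15 difference the same values were 0.09, -0.07 and -0.08. Replicate 1 is the *DAN1*-poorer culture in both LAB and WY7, so over all genes WY7 did not follow LAB. WY7 replicates differed in *DAN1* as well, at 1264 and 2614. Of the 42 other lower genes 28 were lower in the *DAN1*-poorer replicate, where 50.9% of all genes were lower. The median difference of all 43 was only -0.28. In WY23 the median over the 43 was 0.04 and in the deletion -0.02 (replicate 1 minus replicate 2). Replicates in LAB and WY15 differed by a median of 0.18 and 0.20 in absolute log2 over all genes, against 0.12 in WY7, 0.08 in WY23 and 0.13 in the deletion.

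Both tests between strains draw their error from the spread of the replicates, and the 43 lower genes were chosen for a wide spread in LAB and WY15. Their errors and their share of calls were therefore partly set by that choice and are given as a description. No member passed in WY15 against LAB. That comparison, which sets 1 low and 1 high culture against the same in each strain, gave 0 of 6065 genes with a limma adjusted p under 0.05 (0.0%), with 350 at an unadjusted p under 0.05, 0 by edgeR and 6 by DESeq2. Over the 43 lower genes the log2 change of WY15 relative to LAB ran from -1.75 to 0.30, with a median standard error (SE) of 0.56 where all genes had 0.13. *DAN1* was at a log2 change of 0.07 (SE 1.40, limma adjusted p = 1.00), and *OLE1* at a log2 change of -0.47 (SE 0.60, limma adjusted p = 0.94). No difference between the alleles in these genes was detected at SEs of 0.42 to 1.59, which does not show that they act alike. How large a difference could have been detected was not worked out.

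The *MED15* deletion against the mean of the 4 *MED15* strains had 1554 genes higher (25.6%) and 1473 lower (24.3%) by limma at an adjusted p under 0.05, with 2 deletion libraries against 8. When all libraries were set to an equal sum, 3674 were higher and 497 lower. Of the 43 lower genes 7 were higher and 6 lower, and 30 did not pass, at a median SE of 0.44 against 0.10 for all genes. *MUP1* was higher in the deletion (log2 change 3.87, SE 0.33, adjusted p = 6.48e-05, limma), at 12174 and 7794 normalized counts there, and *HES1* (log2 change 1.77, SE 0.34, adjusted p = 0.00338) and *ALP1* (log2 change 1.95, SE 0.37, adjusted p = 0.00316) were higher too. *NCA3*, a wall gene of the SUN family, was lower (log2 change -2.29, SE 0.37, adjusted p = 0.00141), as was *UPC2* (log2 change -1.41, SE 0.40, adjusted p = 0.02), whose call was lost when either deletion replicate was left out (adjusted p up to 0.13 by limma). *DAN1* itself did not pass (log2 change -0.78, SE 1.11, adjusted p = 0.59), its 2 deletion libraries standing at 761 and 1129, nor did *TIR1* (log2 change 0.19, SE 1.11, adjusted p = 0.90) or *OLE1* (log2 change -1.10, SE 0.48, adjusted p = 0.0887).

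Several genes that were short of 2-fold between the low and high cultures in one or both strains differed in the deletion. *DAN4* was higher (log2 change 0.68, SE 0.09, adjusted p = 0.000494), as was *PAU23* (log2 change 1.18, SE 0.17, adjusted p = 0.000733), and 11 of 16 seripauperins were higher and 2 lower. *COX5B* was lower in the deletion (log2 change -1.33, SE 0.10, adjusted p = 4.31e-05), *ROX1* was lower (log2 change -0.78, SE 0.09, adjusted p = 0.000255) and *AAC3* was higher (log2 change 1.91, SE 0.29, adjusted p = 0.000936). Respiratory genes were higher in 29 of 36 cases, led by *CYC1* (log2 change 2.56, SE 0.37, adjusted p = 0.000787). Of the ribosomal protein genes 4 of 132 were higher and 0 lower. The deletion was collected after 48 h rather than 37 h, and harvest time and genotype cannot be told apart.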

How the data were processed

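The authors deposited 1 signal value for each gene in each library, a read count that had been divided by the size factor DESeq2 gives the library. Per the submitters' processing notes, Trim Galore, Bowtie2, featureCounts and DESeq2 were used with the builds sacCer3 and R64, without versions, and whether counting used the strand is not given in the sources used here. Every value was a whole multiple of 1 step per library (100% within 1e-06), so the counts behind the values deposited were recovered, 22.7 to 29.3 M per library. The 4 cultures and the 36 gene lists, and the ribosomal protein list added later, were chosen with earlier results of these data known. Names and positions came from the R64 annotation of RefSeq, in which 5917 of 6600 identifiers matched; 359 of the 683 unmatched were tested. Near-identical genes (97% over 150 bp) were found with BLAST 2.17.0, and promoter sequences are those of RefSeq R64.

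Differences within a strain were taken on log2(value + 1) for the 6065 genes with a mean of at least 10. The 2 tests used limma 3.58.1 with a variance trend in R 4.3.3, 5 group means, 5 residual degrees of freedom, two-sided p and Benjamini-Hochberg adjustment over all genes. edgeR 4.0.16 and DESeq2 1.42.0 on the recovered counts, other pseudocounts, filters and scalings, and a replicate block were alternatives. Leaving out each library of the strains compared was another. The labels call the replicates biological; p-values measure the spread between these samples. On simulated data with 200 changed genes, the pipeline was checked before use.

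Named genes are the 12 lower and 12 higher with the largest smaller difference of the 2 pairs, a standard name, no near-identical copy and a mean of at least 50, then up to 5 per list by that rank and the 3 most abundant, all members of the DAN and TIR, hypoxic isoform, aerobic partner, uptake and regulator lists, and 5 with opposite differences. The genes *ERG2*, *ERG8*, *ERG9*, *ERG11*, *HMG1*, *ELO1*, *FAA1*, *FAA4*, *ACB1*, *PAU17*, *NDE1*, *TPS2*, *PAU3*, *ASP3-1* and those of the 43 named outside the lists were added after their values were seen.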

Additional observations from a re-analysis of the deposited data

Results flagged for a closer look

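The LAB and WY15 pairs did not move in the same direction in 1842 of 6065 genes. The 5 genes given here are those with a mean of at least 50 normalized counts that moved farthest in opposite directions, ranked by the smaller of the 2 differences. *GSY1*, a glycogen synthase, differed by -1.34 in LAB and by 1.00 in WY15, low minus high *DAN1* culture. *GLC3*, the glycogen branching enzyme, differed by -0.90 and 1.18. *RGI1* differed by -0.99 and 1.41, YFR052C-A by -1.05 and 0.82, and YLR177W by -0.76 and 0.99. In all 5 the high culture of LAB stood above the other 3 libraries, and the high culture of WY15 below them. Each strain has 1 pair, and the difference between the strains was not tested.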

How the results depend on the processing

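The count of genes at least 2-fold lower in both low-*DAN1* cultures, 43, stayed between 37 and 51 with other pseudocounts, filters and scalings, and 36 of the 37 under quantile normalization were among the 43; it was 183 at a fold of 1.5. The count of genes 2-fold higher, 10, is less steady. It was 6 with a pseudocount of 10, 6 with a mean of at least 50, 17 with no filter on low values and 68 at a fold of 1.5, which by construction takes in more genes. Setting all libraries to an equal sum moved the median of all genes to 0.06 in LAB and 0.07 in WY15 and gave 38 lower and 15 higher. The correlation across genes ran from 0.34 with no filter to 0.62 with a mean of at least 50. No gene past 2-fold in both strains turned the sign of its mean difference under any setting tried, which genes chosen for such a gap could hardly do. The only list median past 2-fold in both, that of the DAN and TIR genes, kept its sign too. It includes *DAN1*, however, and was -0.43 and -1.36 without it.

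WY15 against LAB gave 1 gene with no filter and 6 with DESeq2. Only libraries of LAB and WY15 were left out in turn for it, which leaves 1 culture in a strain, so no count is given. The deletion gave 2075 to 3279 called genes with 1 library left out and 4171 when all libraries were set to an equal sum. A replicate block gave 0 and 2888 genes. The numbers were not taken to pair the samples, since not every pair of strains deviated together: for replicate 1 minus replicate 2, r was -0.50 between LAB and WY15, but 0.26 to 0.41 among WY7, WY23 and the deletion. On these 4 libraries alone the crossed pairing gave 0 called genes and the block by number 0, alternatives chosen after seeing the data. At this depth weak genes are least certain: *PAU24* had 3 to 11 reads in the 4 libraries.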
